A study of Mus musculus with 6 samples.

Results

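Fatty acids enter metabolism as thioesters of coenzyme A. Long-chain acyl-CoA synthetases, encoded by the Acsl genes, make these acyl-CoAs, and acyl-CoA thioesterases, encoded by the Acot genes, split them back into free fatty acid and coenzyme A. The enzymes of each family differ in the acyl chains they prefer and in where in the cell they lie, so the set of isoforms a cell expresses bears on whether acyl-CoAs go to oxidation, to lipid synthesis or back to free fatty acids. The absorptive cells of the small intestine activate large amounts of dietary fatty acid, and several genes of both families are known targets of the fatty acid receptor PPARα.

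The expression of 10 such genes was analyzed in mouse intestinal organoids treated with LDL. They were 4 synthetase genes (Acsl1, Acsl3, Acsl4 and Acsl5) and 6 thioesterase genes (Acot1, Acot2, Acot7, Acot9, Acot12 and Acot13), taken by gene symbol in the GENCODE annotation from the 55416 genes of the RNA-Seq table. All 10 were in the table and all passed the filter of a mean normalized count of at least 10 over the libraries, as did 18459 genes in total. Acot12 passed it through its LDL-treated libraries, since its mean in the PBS-treated libraries was 7.995.

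Organoids were grown from small intestinal crypts of C57BL/6 mice labeled WT and received LDL at 50 μg/ml, or the vehicle PBS, for 5 days. Each of 3 mice gave 1 library per treatment, so that there were 3 LDL-treated and 3 PBS-treated samples and the libraries of a mouse form a pair. The crypts came from duodenum and jejunum together, and ages were not given in the sources used here.

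Libraries held 22061545 to 31073360 reads on genes. The LDL-treated library of mouse 1 stood apart, with 35781 genes holding a read against 29285 to 32751 in the others and 7.62% of its reads on the ribosomal RNA gene Rn18s-rs5, whereas no single gene took more than 3.32% elsewhere. Markers fitted the epithelial label, with summed normalized counts of 86028 to 129069 for 7 epithelial genes against 32.7 to 92.7 for 9 stromal genes, at most 25.6 for 3 endothelial genes and 125 to 212 for 5 immune genes. The sum of 7 goblet cell markers was 30040 to 36488 with LDL and 52003 to 57132 with PBS. Of these genes 5 were lower with LDL on average, whereas Clca1 and Zg16 were higher. The sum of 7 epithelial markers was higher with LDL in every mouse (1.46-, 1.13- and 1.44-fold). Here 5 genes were higher on average, among them the keratins Krt8 and Krt18, while Epcam was lower in every mouse and Cdx2 lower on average. The sum of 10 enterocyte markers differed mainly between mice, at 52384 with LDL and 53525 with PBS in mouse 2 and between 24528 and 27640 in the other 4 libraries. In such bulk samples, fewer cells of a type and less RNA per cell cannot be told apart.

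The sequences below are shown in 2 groups. The first group is the start of the coding sequences of Acot2 and Acot1, neighbors on the plus strand of chromosome 12 in GRCm39 (Acot2 at chr12:84034428-84040647 and Acot1 at chr12:84056256-84065145) and the first of 6 thioesterase genes, Acot1 to Acot6, that span 123700 bases. Their coding sequences of 1359 and 1257 bases were identical at 95.3% of 1236 aligned positions, with 58 mismatches and a longest identical run of 273 bases. Acot2 begins with 123 bases that have no partner in Acot1, in the part that encodes the mitochondrial targeting sequence, and Acot1 encodes a cytosolic enzyme. Capitals mark bases that differ or have no partner.
Acot1: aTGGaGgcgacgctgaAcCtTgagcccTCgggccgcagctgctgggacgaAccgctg
Acot2: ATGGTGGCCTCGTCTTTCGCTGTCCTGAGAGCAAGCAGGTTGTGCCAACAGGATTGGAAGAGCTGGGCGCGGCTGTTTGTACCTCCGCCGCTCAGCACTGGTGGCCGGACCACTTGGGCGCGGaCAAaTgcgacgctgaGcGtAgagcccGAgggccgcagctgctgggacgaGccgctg

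The likeness limits how well reads of the 2 genes can be told apart. Of all windows of 1 read's length in Acot2 transcripts, 17.3% occurred unchanged in Acot1 transcripts, and of those of Acot1, 11.4% occurred in Acot2. The other members were less alike. Coding sequences of Acsl3 and Acsl4 were 68.0% identical and those of Acsl1 and Acsl5 65.3%, the other Acsl pairs lay at 58.5% to 61.2%, and the other Acot pairs at 57.6% to 64.4%. Identity was counted over aligned positions only, without a baseline from unrelated sequences. The values of the other Acot pairs therefore do not show that those genes are related.

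The second group holds bases before the RefSeq starts of the 4 genes that passed the test below. RefSeq promoter windows (table build GRCm38.p6) were found for 9 of the 10 members, with none for Acot13, and were placed on GRCm39 by an exact match. The 250 bases before each RefSeq start were searched on both strands for AGGTCA, the core site of many nuclear receptors, for AGGTCANAGGTCA, the repeat that PPARα binds together with RXR (with up to 2 mismatches), and for CACGTG, TGACGTCA and CCAAT. A repeat contains the core site, so these motifs overlap. Capitals mark the matches. The stretches of Acot2, Acot1 and Acot9 end where the GENCODE gene begins, at chr12:84034385-84034427, chr12:84056026-84056255 and chrX:154045189-154045428, and that of Acot12 is 30 bases at chr13:91889522-91889551, all on the plus strand. The GENCODE gene of Acot12 begins further upstream than the RefSeq start, so that 244 of its 250 searched bases, the printed ones included, lie inside that gene. For Acot2 this holds for 207 of the 250.
Acot2: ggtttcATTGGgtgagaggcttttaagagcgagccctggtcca
Acot1: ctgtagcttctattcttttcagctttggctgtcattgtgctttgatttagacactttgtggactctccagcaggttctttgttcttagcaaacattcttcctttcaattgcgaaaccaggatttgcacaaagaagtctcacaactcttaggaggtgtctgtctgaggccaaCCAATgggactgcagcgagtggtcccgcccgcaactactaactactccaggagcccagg
Acot9: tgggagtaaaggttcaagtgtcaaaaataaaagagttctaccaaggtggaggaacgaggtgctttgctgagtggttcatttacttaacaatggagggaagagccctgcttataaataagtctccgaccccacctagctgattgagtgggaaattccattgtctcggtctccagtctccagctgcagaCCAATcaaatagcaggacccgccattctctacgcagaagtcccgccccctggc
Acot12: taggacccTGACCTCTCACCTcctaagcac

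In Acot12 the repeat was found on the minus strand with 1 mismatch, beginning 110 bases before the RefSeq start and downstream of the GENCODE one, and its first 6 bases as printed are a full core site. Of 32851 promoters in the table, 0.484% held the repeat with at most 1 mismatch, 3.24% with at most 2 mismatches and 14.02% held the core site. No other member window held either. The searched bases of Acot7, Acsl4, Acsl5 and a second Acsl1 window lie wholly inside their GENCODE genes. CCAAT was in the windows of Acot1, Acot2, Acot9, Acsl1, Acsl3 and Acsl5 and in 33.8% of all promoters, while CACGTG (6.02%) and TGACGTCA (1.55%) were in no member window. These are matches of letters in a window and no measurement of binding.

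Of the 10 genes, 4 were upregulated in LDL-treated organoids and 0 were downregulated, and all 4 encode thioesterases (Acot12, Acot9, Acot2 and Acot1). Log2 values of the normalized count plus 1 were compared with limma with the mouse as a block, and calls needed an adjusted p under 0.05 (Benjamini-Hochberg over all genes tested) together with a change above 1.5-fold. By this rule 5.68% of all genes tested were called higher and 3.46% lower. The median log2 fold change was 0.93 over the 6 thioesterase genes and 0.10 over the 4 synthetase genes, beside -0.02 over all genes tested. Without the mouse block, limma called 1 of the 10 genes higher (Acot12) and 0 lower, beside 0.878% and 0.395% of all genes. DESeq2 on the recovered reads, also without the block, called the same 4 genes higher and 0 lower, among 846 genes higher and 348 lower in all. LDL and PBS values did not overlap in 5 members, which were higher with LDL (Acot12, Acot9, Acot2, Acot1 and Acsl3), and in 0 that were lower, beside 11.9% and 12.3% of all genes.

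**Figure D1:**
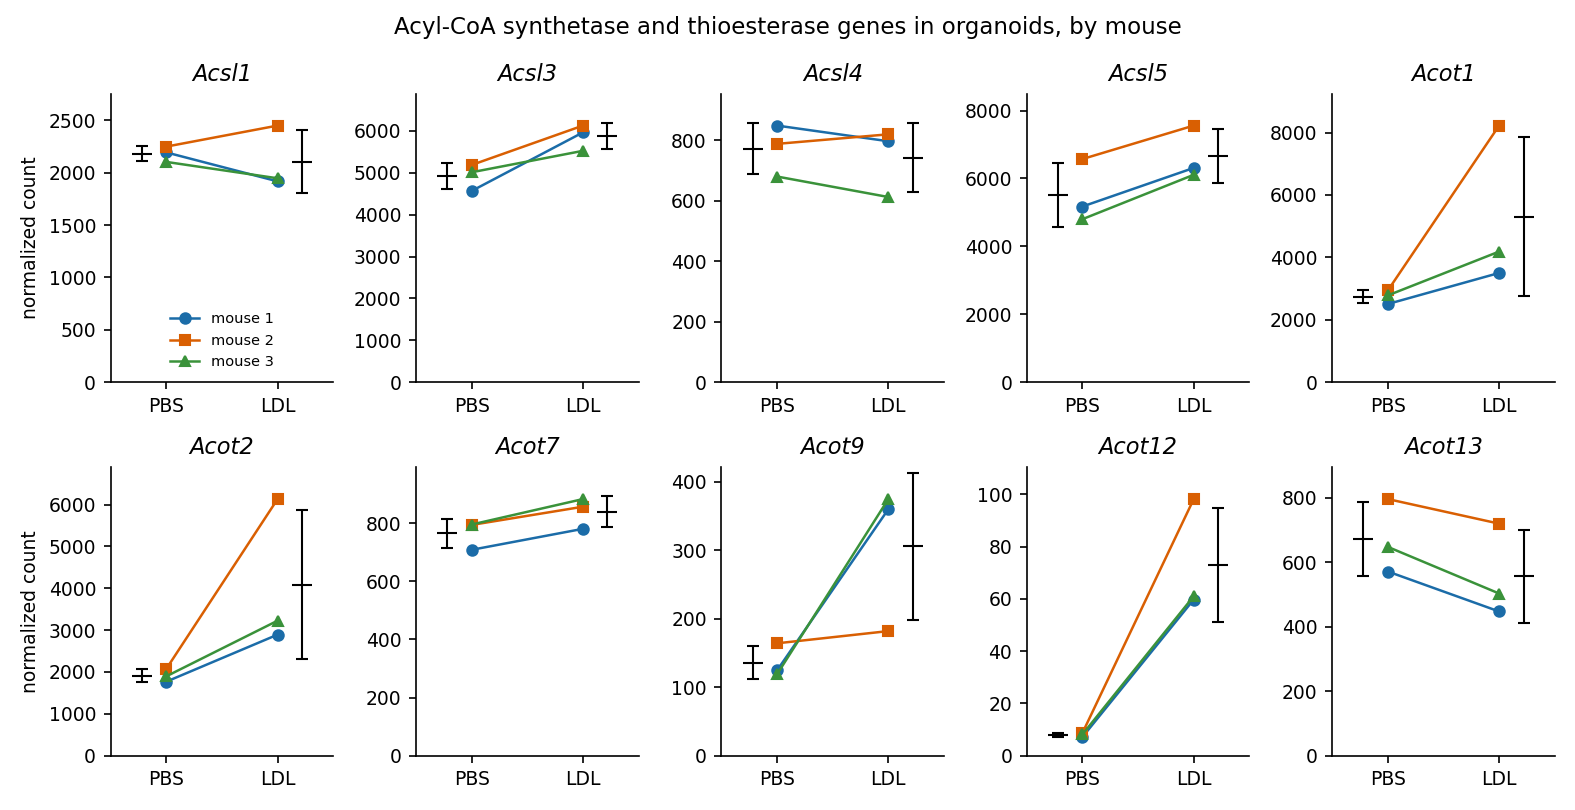
Normalized count (linear axes from 0) of each of the 10 genes in PBS- and LDL-treated organoids, with 1 line per mouse and the mean with SD of the 3 libraries in black beside the points. The lines of Acot1, Acot2 and Acot12 are steepest in mouse 2, that of Acot9 is nearly flat in mouse 2, and the lines of the Acsl genes are close to level.

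Acot12, which encodes a cytosolic enzyme that splits acetyl-CoA, lies at chr13:91889396-91935688. Its normalized counts in mice 1, 2 and 3 were 59.8, 98.2 and 61.0 with LDL and 7.15, 8.70 and 8.14 with PBS, the latter from 7, 7 and 10 reads. Every LDL-treated value was thus far above every PBS-treated value, and the PBS values lay close together although each rests on few reads. Acot12 rose by 3.01 on the log2 scale (SE 0.26, 95% interval 2.39 to 3.62, adjusted p = 0.000527 from limma), that is 8.36-, 11.3- and 7.50-fold in the 3 mice. It was also called without the block (adjusted p = 0.00612 from limma). It was still the lowest of the 10 genes with LDL, at 14.2 ± 4.24 normalized counts per kilobase of exon with LDL (SD, n = 3).

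Acot2, the mitochondrial long-chain thioesterase, had normalized counts of 2892, 6131 and 3225 with LDL and 1768, 2074 and 1896 with PBS. The groups did not overlap, the PBS-treated values were alike, and the LDL-treated value of mouse 2 was well above those of the other mice. The log2 fold change was 1.01 (SE 0.16, adjusted p = 0.00557 from limma), or 1.64-, 2.96- and 1.70-fold by mouse. It was not called without the block (adjusted p = 0.0996 from limma) or without mouse 3 (1.14, adjusted p = 0.0639 from limma).

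Acot1, its cytosolic paralog, showed the same order of mice. Its normalized counts were 3500.5, 8225 and 4186 with LDL and 2505, 2939 and 2781 with PBS, so here too the groups did not overlap and mouse 2 was highest with LDL. The log2 fold change was 0.85 (SE 0.18, adjusted p = 0.0169 from limma), or 1.40-, 2.80- and 1.51-fold by mouse, and without the block the adjusted p was 0.156 from limma. The call was also lost without mouse 3 (0.98, adjusted p = 0.113 from limma) and without mouse 2, where the adjusted p was 1.85e-05 from limma and the log2 fold change of 0.54 was just below 1.5-fold. Because reads could be split between the paralogs, both were summed and refitted as 1 gene, which gave 0.92 on the log2 scale (limma, adjusted p = 0.0106). The sum of Acot1 to Acot6 gave 0.91 (adjusted p = 0.01004 from limma), with 1.48-, 2.81- and 1.602-fold in mice 1, 2 and 3.

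Acot9, a mitochondrial thioesterase gene at chrX:154045429-154175865, followed another pattern. Its normalized counts were 360, 182 and 375 with LDL and 125, 164 and 119 with PBS. The groups did not overlap, but the LDL-treated library of mouse 2 was only slightly above its PBS-treated partner, whereas mice 1 and 3 were far apart. The log2 fold change was 1.11 (SE 0.27, adjusted p = 0.0309 from limma), made of 2.89-, 1.11- and 3.15-fold. It was not called without the block (adjusted p = 0.103 from limma), without mouse 1 (0.90, adjusted p = 0.0811 from limma) or without mouse 3 (0.84, adjusted p = 0.292 from limma). The summed normalized counts of 7 Paneth cell markers were 13937, 17070 and 15901 with LDL and 24682, 17970 and 29026 with PBS. Those of 7 stem cell markers were 16541, 22124 and 20612 with LDL and 24618, 19144 and 35306 with PBS. Both sums were well below their PBS-treated partners in mice 1 and 3 and not in mouse 2. Of the 7 Paneth cell markers, 5 had log2 fold changes below 0 (median -0.33), with Itln1, Defa17 and Defa24 falling, while Mmp7 rose. Among the stem cell markers the lower values held for the sum and not for most genes. There 5 of the 7 had log2 fold changes above 0 (median 0.37), Ascl2 rose, and Olfm4 and Smoc2 fell. Their part in the Acot9 values was not tested.

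Neither Acot7 nor Acot13 was called. Acot7, a cytosolic enzyme known mainly from the brain, had 781, 857 and 883 with LDL and 708, 794 and 795 with PBS as normalized counts. It was a little higher with LDL in each mouse while the groups overlapped, and its log2 fold change was 0.13 (95% interval -0.05 to 0.32, adjusted p = 0.309 from limma). Acot13, a small thioesterase associated with mitochondria, was the one member of its family with lower values under LDL. Its normalized counts were 448, 720 and 503 with LDL and 572, 797 and 648 with PBS. Each mouse was lower with LDL, but the spread between mice was about as large as the difference and the groups overlapped (log2 fold change -0.29, 95% interval -0.50 to -0.08, adjusted p = 0.0738 from limma). Exons of Acot13 share 54.4% of their bases with BC005537 and 20.1% with Tdp2 on the opposite strand, and the libraries were stranded while the strand setting of the counting is not given in the sources used here. The log2 fold change of BC005537 was 0.12 and that of Tdp2 was -0.21, neither called.

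**Figure D2:**
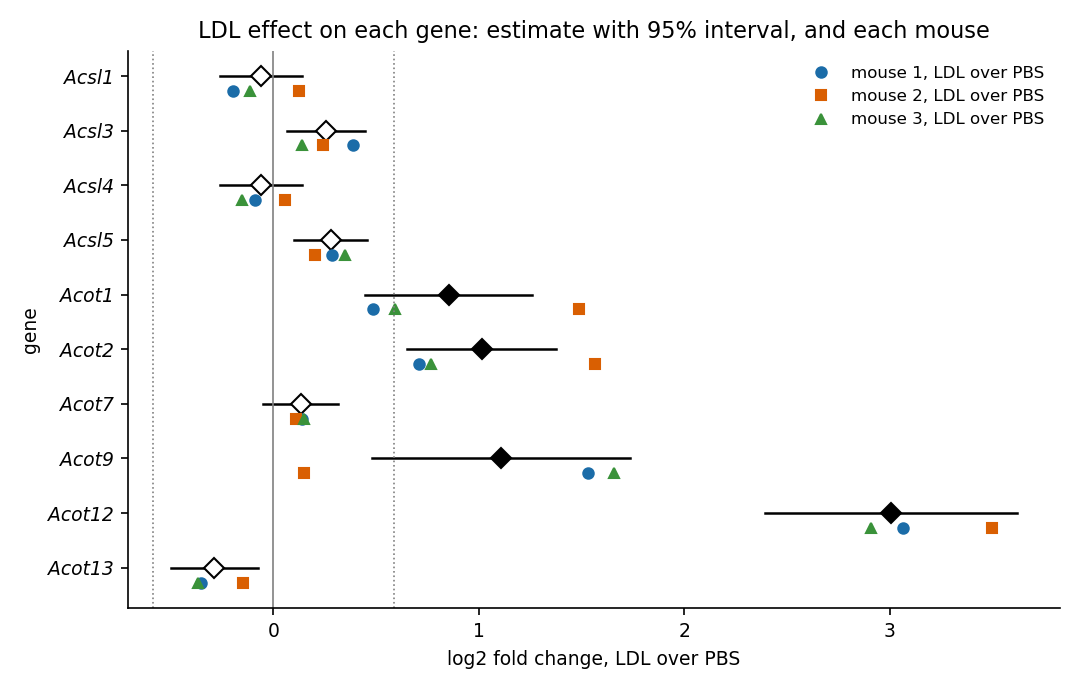
Log2 fold change of LDL over PBS for each of the 10 genes, as the limma estimate with its 95% interval (diamonds, filled where called) and as the value of each mouse (colored symbols below). Dotted lines mark 1.5-fold. Acot1, Acot2, Acot9 and Acot12 are filled, with Acot12 at 3.01, and the 3 mice of Acot9 are split between 1 near 0 and 2 above 1.5.

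None of the 4 synthetase genes was called. Acsl5, at chr19:55240267-55286153, encodes the enzyme that is a major long-chain synthetase of the small intestine. Its normalized counts were 6309, 7556 and 6107 with LDL and 5172, 6571 and 4800 with PBS. Every mouse was higher with LDL, by 1.22-, 1.15- and 1.27-fold, but the PBS-treated library of mouse 2 exceeded the LDL-treated libraries of the other mice, so that the groups overlapped. The log2 fold change of 0.28 (SE 0.08, 95% interval 0.10 to 0.46) had an adjusted p of 0.0468 from limma and did not reach 1.5-fold. Without a fold threshold Acsl5 would count as higher, together with the 4 thioesterase genes, and by that rule 8.27% of all genes were higher and 7.45% lower, while 0 members were lower. Without the block its adjusted p was 0.330 from limma. Acsl5 shares 37.3% of its exon bases with Zdhhc6 on the opposite strand, whose log2 fold change was -0.03.

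Acsl3, at chr1:78635537-78685461, encodes a synthetase of the endoplasmic reticulum and of lipid droplets. It had normalized counts of 5963, 6126 and 5523 with LDL and 4565, 5185 and 5011 with PBS. All LDL-treated values exceeded all PBS-treated values, by a small margin, and the log2 fold change of 0.26 (SE 0.08, adjusted p = 0.0739 from limma) did not pass the test. It shares 15.4% of its exon bases with Utp14b on the same strand, with 0.51 on the log2 scale (limma, adjusted p = 0.0106) and was not called either.

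Acsl1, a synthetase known for its response to PPARα in liver, had 1917, 2450 and 1947 normalized counts with LDL and 2194, 2249 and 2103 with PBS. It was lower with LDL in mice 1 and 3 and higher in mouse 2, and the 95% interval of its log2 fold change of -0.06 ran from -0.26 to 0.14 (adjusted p = 0.689 from limma). Acsl4, which prefers arachidonic acid, had 796, 819 and 612 with LDL and 848, 788 and 680 with PBS. Its mice split in the same way, and its log2 fold change was -0.06 with an interval of -0.26 to 0.14 (adjusted p = 0.683 from limma). For both genes the interval leaves out changes of 1.5-fold in either direction.

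Levels were compared between genes as normalized counts per kilobase of merged exons. Among the synthetases, Acsl5 (1120 ± 132 with LDL and 927 ± 157 with PBS, SD, n = 3) and Acsl3 (1077 ± 57.2 and 903 ± 58.7) stood together at the top and differed by less than their spread. Acsl1 (129 ± 18.4 and 134 ± 4.54) and Acsl4 (125 ± 19.1 and 130 ± 14.3) formed a lower pair that also lay within its spread. The position of Acsl1 depends on the length used, because its merged exons hold 16262 bases and its merged coding exons 2270. Its share of the summed synthetase level with PBS was 6.43% per kilobase of exon and 17.1% per kilobase of coding length.

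Among the thioesterases the order with PBS was Acot2 (796 ± 63.9 per kilobase of exon, SD, n = 3), Acot1 (698 ± 55.9), Acot13 (399 ± 67.9), Acot7 (267 ± 17.3), Acot9 (13.6 ± 2.46) and Acot12 (1.55 ± 0.153). Acot2 and Acot1 were neighbors within little more than their spread, and per kilobase of coding length their order was the reverse, with 24.1% of the summed level for Acot2 and 36.7% for Acot1. With LDL, Acot2 stood at 1699 ± 741, Acot1 at 1351 ± 650, Acot13 at 331 ± 85.5, Acot7 at 293 ± 18.5 and Acot9 at 30.6 ± 10.7. By these means the order was the same in both treatments, but neighbors crossed in single libraries: Acot7 was above Acot13 with LDL in mice 1 and 3, and Acot12 above Acot9 with LDL in mouse 2. Per kilobase of coding length, Acot13 was above Acot2 with PBS (29.3% against 24.1% of the summed level) and below it with LDL (15.8% against 31.9%).

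A share within a library does not depend on how that library was scaled. Acot2 made up 45.3% ± 1.72 of the summed thioesterase level per kilobase with LDL and 36.6% ± 0.566 with PBS (SD, n = 3), which was 7.62, 10.9 and 7.49 percentage points more in the 3 mice. The share of Acot13 went from 18.3% ± 1.42 with PBS to 9.19% ± 1.12 with LDL, a difference of -7.28, -12.0 and -7.96 points. The groups did not overlap for either share. The mean difference depended on the length used, and for Acot13 was -9.07 points per kilobase of exon, -13.6 per kilobase of coding length and -5.57 with no length scaling. For Acot2 it was 8.67 points per kilobase of exon and 5.55 with no length scaling. Within the synthetases no share per kilobase of exon differed by more than 4.41 points in any mouse. With no length scaling the share of Acsl5 differed by 4.92 points in mouse 3. The summed level of the thioesterase members was 1.36-, 2.27- and 1.41-fold that of PBS in mice 1, 2 and 3, and the sum of the synthetase members 1.21-, 1.15- and 1.15-fold. With 3 pairs an exact sign-flip permutation test cannot give a p below 0.25, so these shares and sums are given without a test.

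**Figure D3:**
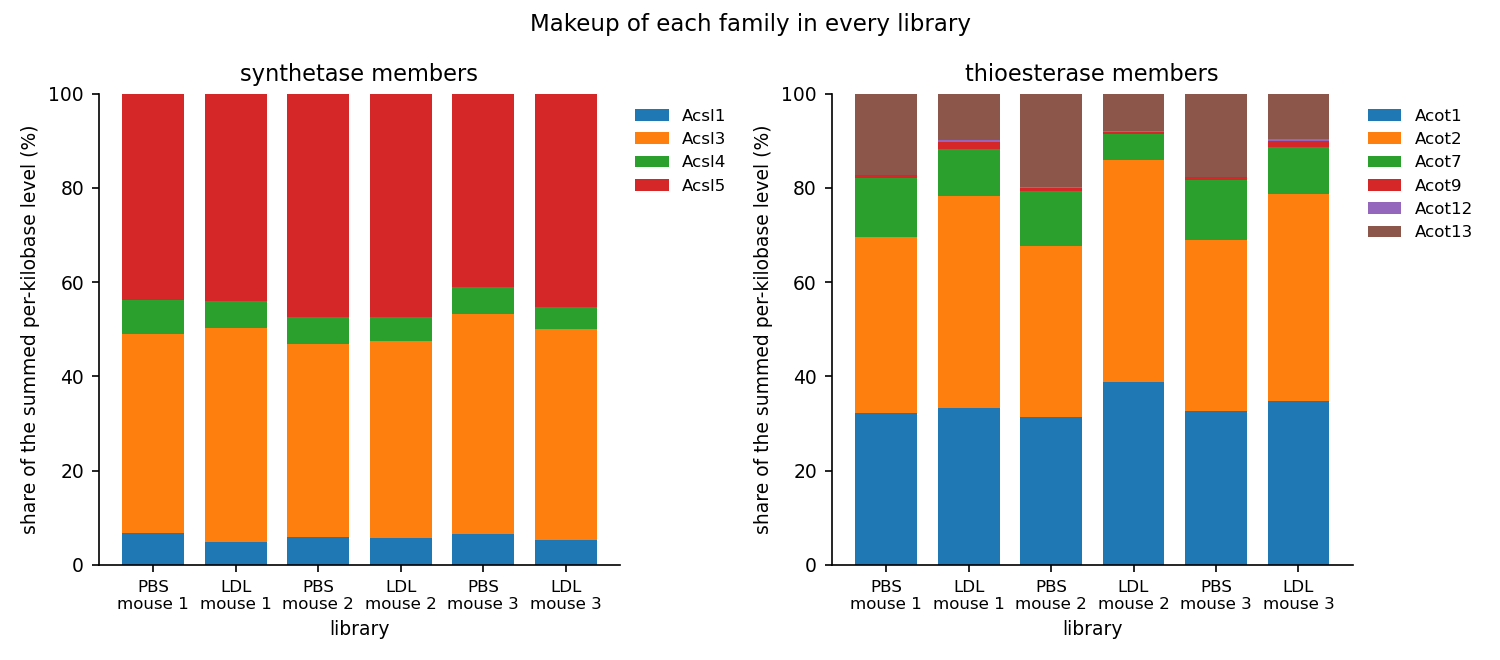
Share of each gene in the summed per-kilobase level of its family (stacked bars, percent, each bar adding up to 100) in the 6 libraries, ordered by mouse. The synthetase bars look alike in all libraries, while in the thioesterase bars the Acot2 segment is larger and the Acot13 segment smaller in the LDL-treated library of every mouse.

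Likeness to other genes was described by the Pearson correlation of log2 values over the 6 libraries, among genes with a mean of at least 100. It was taken for the thioesterase and the synthetase with the lowest p, and is given with no test because the 6 libraries share the treatment difference. Acot12 was most like Rab32 (r = 0.999), Cpt1a (r = 0.998) and Gm13657 (r = 0.997), and 104 of 11939 genes had an r over 0.95. Acsl5 was most like Tubal3 (r = 0.981), Pls1 (r = 0.980) and Anxa13 (r = 0.975), with 16 genes over 0.95.

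The rest of the acyl-CoA pathway was read from the same fit. Of 16 other thioesterase genes, 12 could be tested, of which 3 rose (Acot3, Acot4 and Acot11) and 0 fell, with a median log2 fold change of 0.47. Acot11, also called Them1, had normalized counts of 779, 859 and 802 with LDL and 475, 502 and 421 with PBS. The groups were well separated, and it rose by 0.81 on the log2 scale (limma, adjusted p = 0.00148), called without the block as well (adjusted p = 0.0186 from limma). Acot4 and Acot3 belong to the chromosome 12 cluster. They rose by 0.86 (limma, adjusted p = 0.0108) and 1.83 (limma, adjusted p = 0.0105) on the log2 scale, the latter from normalized counts of only 14.6 to 40.0 with LDL and 4.88 to 8.70 with PBS. Acot3 thus passed the filter on the mean only through its LDL-treated libraries. Neither passed without the block.

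Of 21 other acyl-CoA synthetase genes, 16 could be tested, and 3 rose while 3 fell (median log2 fold change -0.16). Slc27a4, the fatty acid transport protein with synthetase activity that is prominent in enterocytes, rose by 0.73 on the log2 scale (adjusted p = 0.00242 from limma). Acsm3, a medium-chain synthetase, rose by 1.35 (limma, adjusted p = 0.00286). Acsbg1, a very long-chain synthetase, had one of 2.00 (adjusted p = 0.0496 from limma), which came from 10.3-fold and 6.93-fold in mice 1 and 3 and 1.05-fold in mouse 2, the split of mice seen for Acot9. Those that fell act on short chains: Aacs, which activates acetoacetate (-0.67, adjusted p = 0.00441 from limma), and the mitochondrial short-chain synthetases Acss1 (-0.67, adjusted p = 0.0236 from limma) and Acss3 (-1.17, adjusted p = 0.0366 from limma). Without the block, 0 of these 16 genes were called.

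Enzymes that take acyl-CoA into the carnitine shuttle, the route into mitochondria, had log2 fold changes above 0 for all 7 genes tested, and 3 of the 7 rose, with a median log2 fold change of 0.80. These were Cpt1a, the rate-limiting step of the route (1.05, adjusted p = 0.000203 from limma), the carnitine carrier Slc25a20 (1.13, adjusted p = 0.00148 from limma) and the peroxisomal Crot (0.96, adjusted p = 0.000918 from limma). All 3 were also called without the block.

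Genes for coenzyme A itself differed little apart from 1. Of 15 listed, 13 could be tested and Vnn1, the pantetheinase that recycles a coenzyme A breakdown product, rose by 3.15 on the log2 scale (adjusted p = 0.00012 from limma) with 11.8-, 5.68- and 10.8-fold in the 3 mice, while the median of the list was -0.14. Of 7 acyl-CoA binding proteins 5 were tested and 0 were called. Their most highly counted gene, Dbi, had 0.06 (limma, adjusted p = 0.745), and Acbd3 had 0.07 (adjusted p = 0.634 from limma).

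Of 20 acyltransferase genes that use acyl-CoA to build glycerolipids and sterol esters, 19 could be tested, 4 rose and 1 fell, with a median log2 fold change of 0.05. Gpam, which carries out the first acylation step in mitochondria, fell by 0.94 on the log2 scale (adjusted p = 0.000862 from limma). The lysophospholipid acyltransferases Mboat1 (2.21, adjusted p = 0.000131 from limma) and Lpcat4 (1.08, adjusted p = 0.00193 from limma), the acyltransferase Agpat4 (0.76, adjusted p = 0.0218 from limma) and Dgat2, which makes triglyceride (0.78, adjusted p = 0.0129 from limma), rose. Of these 5, Mboat1 alone was called without the block.

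**Figure D4:**
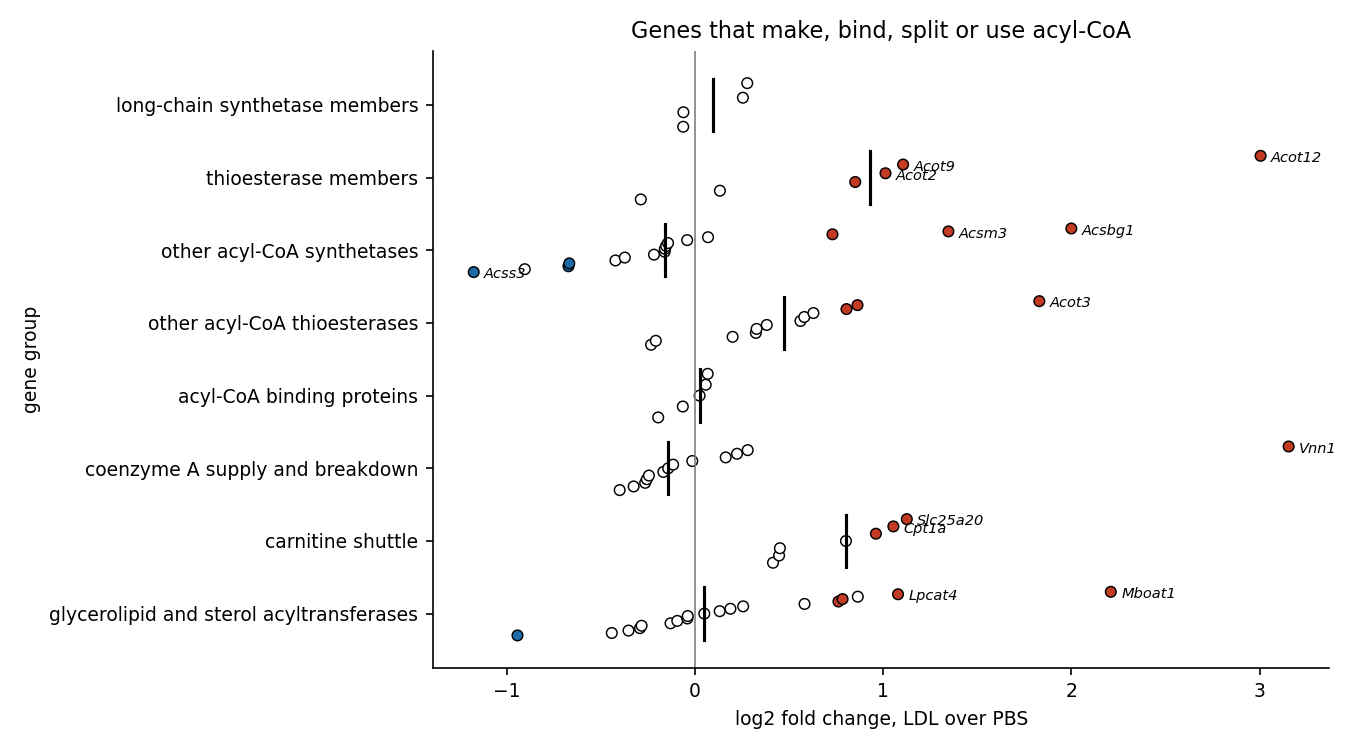
Log2 fold change of LDL over PBS for every tested gene of the 2 families and of related acyl-CoA gene groups (1 point per gene, red where called higher, blue where called lower, white where not called; vertical bars give the median of a group). Names are given for called genes beyond 1 on the log2 scale, and the thioesterase and carnitine shuttle groups lie mostly to the right of 0.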

How the data were processed

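The authors made stranded libraries after ribosomal RNA removal, aligned reads to GRCm39 with STAR, counted them per gene with featureCounts and deposited normalized counts (DESeq2), a signal in which each library's reads are divided by 1 size factor. Dividing by the smallest step of each library returned whole reads for 100% of its values (tolerance 0.01 reads). GENCODE M39 named 54749 of 55416 identifiers.

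Log2 values (pseudocount 1) of 18459 genes with a mean of at least 10 were fitted with limma 3.58.1 in R 4.3.3 (trend, two-sided, mouse as a block). On the recovered reads, edgeR 4.0.16 with TMM called 4 and 0 members higher and lower, as limma did, among 1171 and 588 genes. Treatment and mouse came from the labels, in which both libraries of a replicate number share an animal. After removal of treatment means, the 2 libraries of each mouse had r = 0.48, 0.42 and 0.46 across genes. The deposited library depth of 22061545 to 31073360 reads gives counting error alone, and a gene without a read could hold up to 3.

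Alternatives were pseudocounts of 0.5 and 5, a minimum mean of 50 or none, upper-quartile and quantile scaling, fits without the mouse, edgeR and DESeq2 1.42.0 with and without it, other thresholds and each mouse left out. All 10 members were named, and of each related list the called genes (at most 6), or otherwise the 2 with the highest mean. Members and lists were chosen with earlier results of these data known. Scripts were tested on simulated data.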

Additional observations from a re-analysis of the deposited data

How the results depend on the processing

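Without the mouse block (no pairing), limma called 162 genes higher and 73 lower with 1 thioesterase gene higher, and edgeR 186 and 70 with 1, while DESeq2 called 846 and 348 with 4. At an adjusted p under 0.001, 188 genes were higher and 39 lower, with 1 thioesterase gene. At any fold change 1375 genes were lower and 1 synthetase gene (Acsl5) was higher. Leaving out both libraries of a mouse in turn gave 265 to 1604 genes higher (without mouse 3 and without mouse 2), 77 to 1348 lower and 327 lower without mouse 1, and 1 to 3 thioesterase genes higher, with 1 without mouse 3. Fewer pairs entered these fits, and why the mice differ was not tested. Acsl1, never called, had log2 fold changes of -0.15 (without mouse 2) to 0.0060 (without mouse 1).

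Acot12 was called in all 15 alternatives in which it could be tested (log2 fold change 2.55 to 3.21, adjusted p 2.4e-10 to 0.0169 over limma, edgeR and DESeq2) and had no value at a mean of at least 50. Acot2 was called in 12 of 16 (0.74 to 1.16), Acot1 in 11 (0.54 to 1.04) and Acot9 in 11 (0.84 to 1.59), and Acsl5 in 1. Acsl3, Acsl4, Acot7 and Acot13 were called in 0 of 16 and kept their direction. Other pseudocounts and scalings, edgeR and DESeq2 with the block changed no member's call. Without a filter on the mean, the median log2 fold change of all genes was 0.10. Precision is limited by 3 pairs and, for Acot12, by 7 to 10 reads per PBS-treated library.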
